A study of Mus musculus with 12 samples.

Results

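The E2F and DP transcription factors were followed as a family of 10 genes, E2f1 to E2f8, Tfdp1 and Tfdp2, chosen by gene symbol and not by any measured value from the 24091 genes of the deposited expression table. All 10 were in the table, and 8 of them reached at least 1 TPM, a transcript abundance scaled for gene length and to a fixed total per library, in each of the 12 libraries. E2f2 and E2f8 fell below that level in the tumor-free cerebellum of all control mice but GB512, and in the cerebellum beside the tumor of mouse GB370. In medulloblastomas, 6 of the 10 genes rose past the fold and significance thresholds against tumor-free cerebellum, as did 14.4% of all genes tested. The 6 were E2f1, E2f2, E2f3, E2f7, E2f8 and Tfdp1. The other 4 moved by less than the fold minimum, E2f4, E2f5 and Tfdp2 towards higher values and E2f6 towards lower ones.

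E2F proteins bind the promoters of genes needed for DNA replication and cell division, E2F1 to E2F6 as heterodimers with a DP partner encoded by Tfdp1 or Tfdp2. E2F1, E2F2 and E2F3 activate these genes once cyclin-dependent kinases release them from the retinoblastoma protein. E2F4 and E2F5 hold the same genes silent together with the pocket proteins p107 and p130, E2F6 represses within a Polycomb complex, and the atypical E2F7 and E2F8 repress late in the cycle without a DP partner. In the young cerebellum, granule cell progenitors divide under Sonic hedgehog (SHH) signaling and then leave the cycle, so that adult cerebellum holds few dividing cells. SHH medulloblastoma is the childhood cerebellar tumor that arises from these progenitors.

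The 12 poly(A) RNA libraries came from a mouse model of SHH medulloblastoma. Exons 3 and 4 of Brca2, which encode part of the PALB2-binding region, were deleted conditionally in the developing central nervous system by Cre under the human GFAP promoter (hGFAP-Cre), and Trp53 was knocked out in the whole body by a neo cassette in place of exons 2 to 6. Tumor and adjacent cerebellum were taken from the same 3 mice (GB344, GB359 and GB370), which the labels give as Brca2-mut;Trp53-mut. Tumor-free cerebellum came from 3 Brca2-mut;Trp53-WT mice (GB361, GB508 and GB512) and 3 Brca2-WT;Trp53-mut mice (GB517, GB519 and GB520), each carrying a single mutant gene. Postnatal day 90 is given for the Brca2-WT control cerebella, and the paper describes its normal cerebellum as age-matched to the tumors. The age of the tumor mice is not given in the labels. Whether the Brca2-WT;Trp53-mut mice carried Cre is not stated either. No library of a mouse with both genes wild type was analysed here, so each comparison with controls is with cerebellum that carries a mutation of its own.

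The read depth behind each value is unknown because TPM keep no depth, and each library summed to between 999793 and 999876 TPM. Gene-level TPM do not test the labelled deletions, since transcripts without the deleted exons still count. Brca2 was at 11.2 ± 3.18 TPM in tumors and 3.68 ± 0.409 TPM in the 6 controls (SD, n = 3 and 6), and Trp53 was at 127 ± 3.19 TPM in tumors, 34.8 ± 2.10 TPM in Brca2-mut;Trp53-WT and 48.6 ± 1.30 TPM in Brca2-WT;Trp53-mut cerebellum (n = 3 each). Of the markers used to check the tissue labels, 8 of 8 granule cell progenitor markers rose in tumors, with summed levels of 2263 to 2898 TPM against 65.1 to 89.8 TPM in controls. In the same comparison 7 of 8 granule neuron, 6 of 6 Purkinje cell, 6 of 7 astrocyte and Bergmann glia and 6 of 6 oligodendrocyte markers fell. Their part in the differences of the E2F and DP genes was not tested, and in bulk tissue a change in the number of cells of a type cannot be told apart from a change in RNA per cell.

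**Figure D1:**
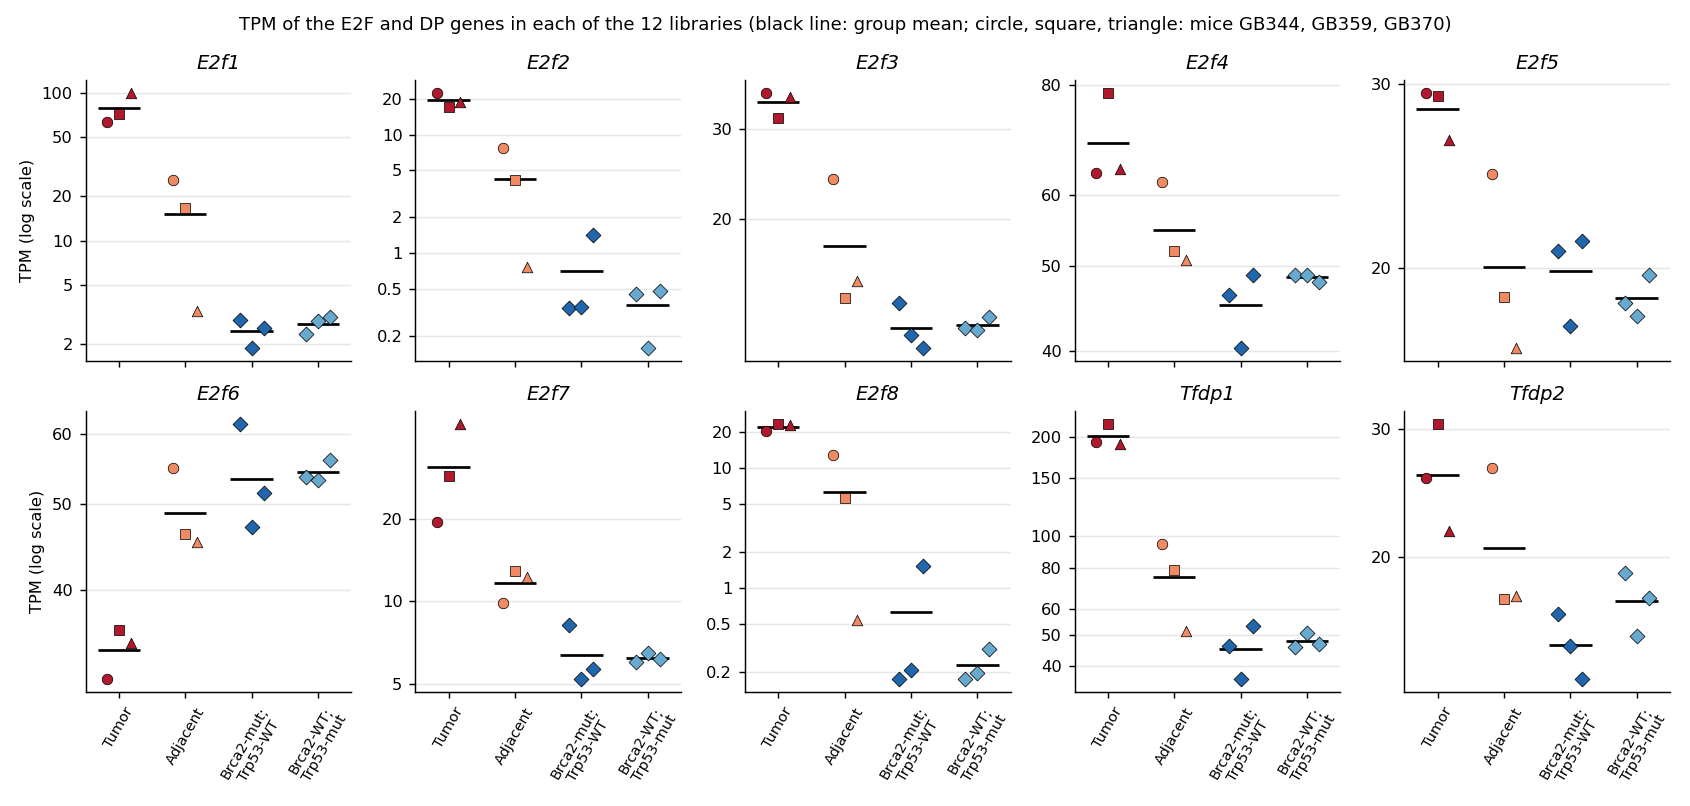
Level of each gene in TPM (log axis, scale differing by panel) in the 12 libraries, 3 per group, with points for libraries and a black line for the group mean. The 3 tumors lie above all 6 tumor-free cerebella for 9 genes (28.3% of all genes tested) and below them for E2f6 (35.7% of all genes tested). For E2f1, E2f2, E2f8 and Tfdp1 the adjacent cerebella run from GB344 (circle), the highest, to GB370 (triangle), which lies beside or among the controls.

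The first comparison set the 3 tumors against the 6 tumor-free cerebella, with limma on log2(TPM + 1). A gene was called when its Benjamini-Hochberg adjusted p over all tested genes was under 0.01 and its log2 fold change was at least 1 in size. Of the 16241 genes tested, 14.4% were called higher in tumors and 21.5% lower, and among the 10 E2F and DP genes 6 passed as higher and 0 as lower. Over the 10 genes the log2 fold change had a median of 1.73, and over all genes tested one of -0.11. The same 6 genes were called against each control genotype alone, where 13.5% of all genes were called higher against Brca2-WT;Trp53-mut and 14.3% against Brca2-mut;Trp53-WT cerebellum. With an adjusted p under 0.05 and no fold minimum all 10 genes passed against each, as did 65.6% and 63.4% of all genes. Groups did not overlap for any of the 10 genes, with tumors higher for 9 genes and lower for E2f6. Over all genes tested, tumors lay wholly above controls for 28.3% and wholly below for 35.7%.

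Among the activators, E2f1 (Entrez 13555, chr2:154559400-154569892, minus strand, GRCm38) encodes the founding member of the family, which drives entry into S phase and can also trigger apoptosis. Its level was 63.4, 71.9 and 100.1 TPM in the tumors of mice GB344, GB359 and GB370. It was 2.92, 1.88 and 2.58 TPM in Brca2-mut;Trp53-WT and 2.34, 2.87 and 3.05 TPM in Brca2-WT;Trp53-mut cerebellum. The lowest tumor was thus far above the highest control, and the means were 78.5 ± 19.2 and 2.61 ± 0.439 TPM, a TPM ratio of 30.1. The log2 fold change was 4.44 (SE 0.17) with a limma adjusted p of 1.68e-08, and E2f1 moved from the eighth of the 10 genes in mean TPM in controls to the second, after Tfdp1, in tumors.

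E2f2 (Entrez 242705, chr4:136172274-136196057, plus strand) encodes an activator that acts redundantly with E2F1 and E2F3 in dividing progenitors. It was at 22.7, 17.1 and 18.8 TPM in the tumors. In controls it was at 0.346, 0.353 and 1.41 TPM in Brca2-mut;Trp53-WT and 0.449, 0.158 and 0.476 TPM in Brca2-WT;Trp53-mut cerebellum. Only the cerebellum of mouse GB512 among the controls was above 1 TPM. The TPM ratio of the means was 36.7, and the log2 fold change was 3.78 (SE 0.22, limma adjusted p = 1.24e-07), smaller than the ratio implies because a pseudocount of 1 TPM weighs on values this low.

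E2f3 (Entrez 13557, chr13:29906575-29986064, minus strand) encodes an activator that is amplified in some human cancers. Unlike E2f1 and E2f2 it was well expressed without a tumor, at 13.7, 11.8 and 11.1 TPM in Brca2-mut;Trp53-WT and 12.2, 12.1 and 12.8 TPM in Brca2-WT;Trp53-mut cerebellum. Tumors were at 35.5, 31.6 and 34.8 TPM, each above all controls. The log2 fold change was 1.40 (SE 0.09, limma adjusted p = 3.22e-07), a TPM ratio of 2.76.

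The promoters of these genes were read for the E2F-binding consensus, since E2F genes are themselves known targets of E2F proteins. RefSeq promoter windows of GRCm38.p6, from 250 bases before to 50 after a transcription start, were available for 8 of the 10 genes in 12 windows. E2f4 and E2f5 had no entry. The letters TTTNNCGC were searched on both strands, and more specific forms of it such as TTTCCCGC and TTTGGCGC overlap with it. They were present in 5 of the 12 windows, in 4 genes (E2f2, E2f3, E2f7 and Tfdp1), and in 5.17% of all 32851 promoter windows. The windows of Tfdp1 overlap and hold the same match, which is thus counted in each. These 4 genes were all among the 6 called higher in tumors, but all 6 were among the 8 genes with windows. A link between the letters and the calls was not tested. The windows of E2f1, E2f8, E2f6 and Tfdp2 held no such letters. The E2f1 window lies within the gene, and all 250 of its upstream bases are GENCODE exon sequence, so the sequence upstream of the RefSeq gene was not read for E2f1. The Tfdp2 windows also lie within the RefSeq gene, so the sequence upstream of that gene was not read either. A match describes letters only and shows no binding.

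In E2f2 the letters stood just downstream of the first start, at position +5 and at position +40 (counted from 1 at the start site), at chr4:136172270-136172293 and chr4:136172305-136172323, plus strand. Both short sites are shown with the match in capitals, the second cut at the end of the window. The bases after this RefSeq start, where both lie, were found in no GENCODE transcript of E2f2 (searched in runs of 20 bases), unlike those of the other 11 windows.
E2f2 +5: gcgcggcaTTTTCCGCgggagatc
E2f2 +40: gcatatagTTTGGCGCtaa

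In E2f3 the window of the first start held the consensus on the opposite strand at position -11 and, 12 bases upstream of it, the letters TTTGAA of the cell cycle homology region (CHR), the element bound by the DREAM and B-Myb complexes. The stretch chr13:29986065-29986313, minus strand, is shown 5′ to 3′ to the last base before the RefSeq gene, with both matches in capitals. TTTGAA was present in 3 of the 12 windows and in 17.9% of all promoter windows, so that it was not scarce in the genome at large.
E2f3: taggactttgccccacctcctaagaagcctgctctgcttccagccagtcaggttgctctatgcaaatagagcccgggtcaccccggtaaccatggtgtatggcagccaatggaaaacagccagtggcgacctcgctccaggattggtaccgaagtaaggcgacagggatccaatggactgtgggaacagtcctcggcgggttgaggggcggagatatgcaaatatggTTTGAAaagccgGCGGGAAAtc

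The atypical repressors rose with the activators. E2f7 (Entrez 52679, chr10:110745439-110787384, plus strand) and E2f8 (Entrez 108961, chr7:48866429-48882073, minus strand) encode proteins with a duplicated DNA-binding domain that repress E2f1 and other G1/S genes. E2f7 was at 19.6, 28.7 and 44.8 TPM in the tumors of mice GB344, GB359 and GB370. Controls were at 8.19, 5.18 and 5.67 TPM in Brca2-mut;Trp53-WT and 5.996, 6.48 and 6.13 TPM in Brca2-WT;Trp53-mut cerebellum. Tumors differed among themselves more for E2f7 than for most of the family (31.02 ± 12.7 TPM, SD, n = 3), yet each lay above all controls. The log2 fold change was 2.07 (SE 0.22, limma adjusted p = 1.23e-05). E2f7 overlaps the antisense gene 1700020G17Rik, listed at 0 to 1.63 TPM, and the counting is not stated to use strand.

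E2f8 was at 20.4, 23.3 and 22.6 TPM in the tumors, a narrow range. Among controls it was at 0.175, 0.209 and 1.52 TPM in Brca2-mut;Trp53-WT and 0.177, 0.196 and 0.314 TPM in Brca2-WT;Trp53-mut cerebellum. As for E2f2, mouse GB512 stood above the other controls. The TPM ratio of the means was 51.2, the highest in the family, and the log2 fold change was 4.07 (SE 0.24, limma adjusted p = 1.51e-07). Without mouse GB512 the TPM ratios were 103 for E2f8 and 54.8 for E2f2, and the log2 fold changes were 4.25 and 3.92.

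The promoter stretch of E2f7 (chr10:110745189-110745438, plus strand) held the E2F consensus once, on the opposite strand at position -198, far from the start compared with E2f2 and E2f3. The window of E2f8 held no E2F consensus but held TTTGAA on the opposite strand at position -20. Both are shown with matches in capitals, E2f8 as the site only (chr7:48881601-48881626, minus strand). The start of the E2f8 window lies inside the RefSeq gene, and so does this site, outside GENCODE exons.
E2f7: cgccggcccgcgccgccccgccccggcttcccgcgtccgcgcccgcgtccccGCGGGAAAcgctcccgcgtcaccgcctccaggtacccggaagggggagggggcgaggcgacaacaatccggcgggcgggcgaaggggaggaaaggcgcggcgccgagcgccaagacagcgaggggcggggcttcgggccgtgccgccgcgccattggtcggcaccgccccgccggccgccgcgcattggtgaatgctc
E2f8: gcgggttaatTTCAAAtcgggggctg

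Of the DP partners, Tfdp1 (Entrez 21781, chr8:13338725-13378448, plus strand) was the most abundant member of the family in tumors, and DP1 is a widely expressed partner of the activator E2Fs. It was at 193, 219.7 and 191 TPM in the tumors of mice GB344, GB359 and GB370. Controls were at 46.2, 36.5 and 53.1 TPM in Brca2-mut;Trp53-WT and 45.7, 50.6 and 46.7 TPM in Brca2-WT;Trp53-mut cerebellum. The log2 fold change was 2.10 (SE 0.11, limma adjusted p = 8.27e-08), a TPM ratio of 4.33. Tfdp2 (Entrez 211586, chr9:96196246-96323646, plus strand) encodes the alternative partner and was at 25.7, 30.5 and 21.7 TPM in tumors. Controls were at 16.7, 15.1 and 13.6 TPM in Brca2-mut;Trp53-WT and 19.0, 15.6 and 17.6 TPM in Brca2-WT;Trp53-mut cerebellum. Its log2 fold change of 0.64 (SE 0.13, adjusted p = 0.0014 by limma) was below the fold minimum.

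The promoter stretch of Tfdp1 (chr8:13338501-13338724, plus strand) held the consensus on the opposite strand at position -43 from the first start. It is shown to the last base before the RefSeq gene, with the match in capitals.
Tfdp1: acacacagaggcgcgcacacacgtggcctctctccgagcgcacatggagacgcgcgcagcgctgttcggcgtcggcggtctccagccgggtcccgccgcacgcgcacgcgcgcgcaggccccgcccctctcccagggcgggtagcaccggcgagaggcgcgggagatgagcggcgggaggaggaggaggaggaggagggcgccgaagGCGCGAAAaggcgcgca

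The canonical repressors moved by less than the fold minimum. E2f4 (Entrez 104394, chr8:105297663-105305370, plus strand), the main E2F bound to promoters in resting cells, was at 63.6, 78.4 and 64.3 TPM in tumors. Controls were at 46.3, 40.3 and 48.8 TPM in Brca2-mut;Trp53-WT and 48.8, 48.8 and 47.8 TPM in Brca2-WT;Trp53-mut cerebellum. The log2 fold change was 0.54 (SE 0.10, limma adjusted p = 0.000454), past the significance threshold and short of the fold minimum. E2f5 (Entrez 13559, chr3:14578602-14606309, plus strand), which with E2F4 also acts in multiciliated cells, was at 29.5, 29.2 and 26.5 TPM in tumors. Controls were at 20.8, 17.6 and 21.2 TPM in Brca2-mut;Trp53-WT and 18.5, 18.01 and 19.7 TPM in Brca2-WT;Trp53-mut cerebellum, with a log2 fold change of 0.54 (SE 0.09, adjusted p = 0.000396 by limma). E2f5 shares bases on the opposite strand with the protein-coding gene 1810022K09Rik, listed at 96.8 to 323 TPM, so its reads are uncertain if strand was not used.

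E2f6 (Entrez 50496, chr12:16810909-16826752, plus strand), which lacks the pocket protein binding domain, was the only member lower in tumors. It was at 31.7, 36.0 and 34.9 TPM in tumors. Controls were at 61.6, 47.2 and 51.4 TPM in Brca2-mut;Trp53-WT and 53.6, 53.2 and 56.1 TPM in Brca2-WT;Trp53-mut cerebellum. The highest tumor was below the lowest control, and the log2 fold change was -0.64 (SE 0.09, limma adjusted p = 0.000111). With no fold minimum and an adjusted p under 0.05, all 10 genes passed, as did 71.3% of all genes tested, so that passing that rule did not set the family apart. Median-of-ratios scaling and quantile normalization moved the median of all genes from -0.11 to -0.01 and 0.04, and E2f6 stayed between -0.68 and -0.50 over its 17 alternatives.

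**Figure D2:**
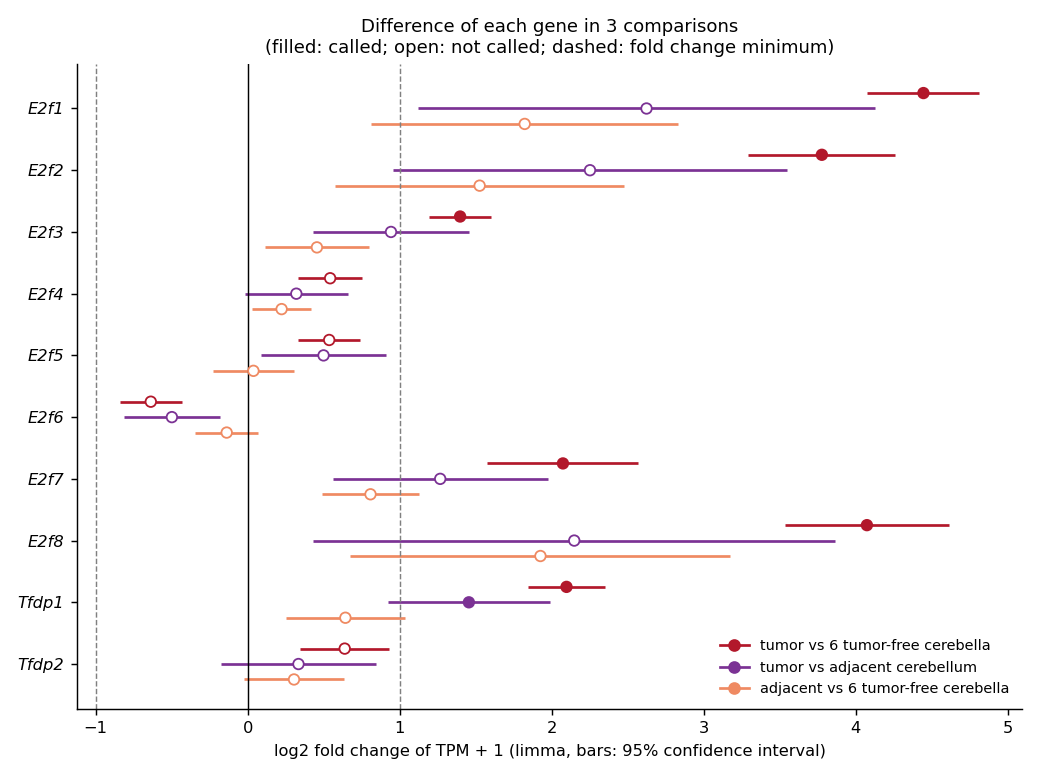
Log2 fold change of TPM + 1 for each gene in 3 comparisons, with 95% confidence intervals from limma, filled points for called genes and dashed lines at the fold minimum of 1 in size. Against the 6 tumor-free cerebella 6 genes are filled, against adjacent cerebellum only Tfdp1 is, and the intervals of E2f1, E2f2 and E2f8 are wide wherever adjacent cerebellum is compared.

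The make-up of the family's transcripts shifted with these differences. Of the summed TPM of E2f1 to E2f8, the activators E2f1, E2f2 and E2f3 made up 42.5%, 38.1% and 44.3% in the tumors of mice GB344, GB359 and GB370 and between 10.5% and 11.3% in the 6 controls. The canonical repressors E2f4, E2f5 and E2f6 made up 36.2% to 45.4% in tumors and 83.6% to 85.1% in controls. The share of the atypical E2f7 and E2f8 was 14.0%, 16.5% and 19.4% in tumors and 4.33% to 5.43% in controls. In absolute terms the canonical repressors were at 131 ± 10.6 TPM in tumors and 120.0 ± 7.92 TPM in controls (SD, n = 3 and 6), while the activators were at 132 ± 18.9 and 15.4 ± 1.04 TPM. The shift in shares therefore came with a rise of the activators and atypical members and little change in the sum of the canonical repressors. That sum holds opposite moves. Mean levels in tumors against controls were 68.8 and 46.8 TPM for E2f4, 28.4 and 19.3 TPM for E2f5, and 34.2 and 53.9 TPM for E2f6.

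The balance of the 2 DP genes shifted too. Tfdp1 made up 87.8% to 89.8% of the summed DP transcripts in tumors and 70.6% to 79.6% in controls. The ratio of summed E2F to summed DP TPM was 1.26 to 1.63 in tumors and 2.14 to 2.45 in controls, so that DP transcripts gained on E2F transcripts. These ratios are formed from the values already compared and were given no test of their own.

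**Figure D3:**
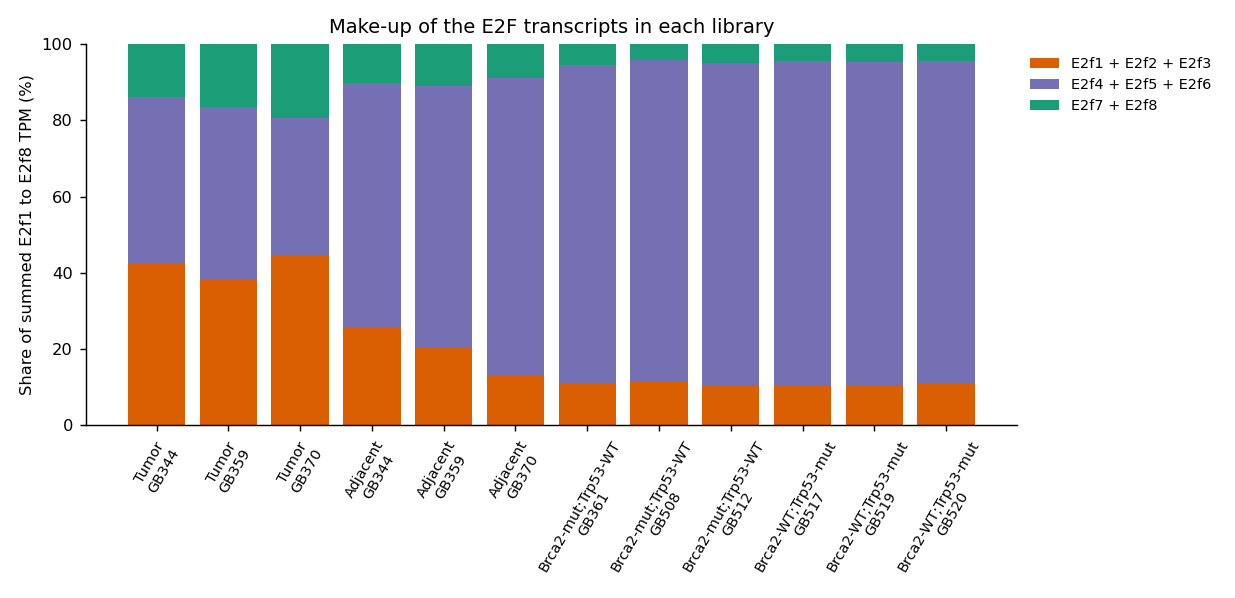
Share in percent of the summed TPM of E2f1 to E2f8 held by the activators (E2f1, E2f2, E2f3), the canonical repressors (E2f4, E2f5, E2f6) and the atypical repressors (E2f7, E2f8) in each of the 12 libraries. Activators hold 38.1% to 44.3% in the 3 tumors, 25.9%, 20.4% and 13.2% in the adjacent cerebella of mice GB344, GB359 and GB370, and 10.5% to 11.3% in the 6 controls.

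Adjacent cerebellum has the same labelled genotype as the tumor, from the same mice, and was compared with it next. The label does not cover changes acquired by the tumors, and the paper reports Ptch1 mutations in every mouse tumor whose genome it sequenced. Only Tfdp1 was called, with a log2 fold change of 1.45 (SE 0.23, limma adjusted p = 0.00239). Of the 15845 genes tested, 4.76% were called higher in tumors, so that 1 of 10 genes was not far from the background. E2f1 (2.62, adjusted p = 0.0135), E2f2 (2.25, adjusted p = 0.0137) and E2f7 (1.27, adjusted p = 0.0122) had log2 fold changes over the minimum and an adjusted p just over 0.01. E2f8 (2.15, adjusted p = 0.0436) missed it more widely, and E2f3 (0.94, adjusted p = 0.0114) missed both thresholds. At an adjusted p under 0.05 with no fold minimum 8 of the 10 genes passed, beside 50.4% of all genes. With the mouse as a block, 2 genes were called, Tfdp1 (adjusted p = 0.00407) and E2f7 (adjusted p = 0.00843, with a range of 0.00127 to 0.133 over its 16 alternatives). In that fit 701 of the 15845 genes were called higher and 2841 lower.

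The number of E2F and DP genes called against adjacent cerebellum depended on single libraries and on scaling. Without the tumor of mouse GB359 none was called, Tfdp1 then having an adjusted p of 0.0105 (range 7.98e-05 to 0.0105 over its 16 alternatives). The number was 2 without the tumor of GB344, 4 without the adjacent cerebellum of GB344 and 3 without that of GB370. Of the 15845 genes tested, 458, 913 and 608 were called higher in these fits, and 275 without the tumor of GB359. Median-of-ratios scaling, quantile normalization and a fit of all 4 groups (with 1278 of all genes called higher) gave 5 each. These scalings also moved the calls over all genes from 755 higher and 2852 lower to 1296 and 2476 (median of ratios) and to 1603 and 2192 (quantile), and the median of all genes from -0.14 to 0.02 and 0.12.

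The adjacent cerebella themselves differed between mice. In mice GB344, GB359 and GB370, E2f1 was at 25.7, 16.6 and 3.33 TPM, while the highest control was at 3.05 TPM. E2f2 was at 7.74, 4.11 and 0.760 TPM in the same order. E2f8 was at 12.7, 5.63 and 0.545 TPM, and both E2f2 and E2f8 of mouse GB370 were below the highest control. Tfdp1 followed the same order, at 94.8, 78.6 and 51.3 TPM.

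Other members kept no such order or spread less. E2f3 was at 24.0, 14.0 and 15.1 TPM and E2f7 at 9.84, 12.95 and 12.3 TPM in adjacent cerebellum of mice GB344, GB359 and GB370. E2f4 was at 62.1, 51.9 and 50.7 TPM and E2f5 at 24.6, 18.8 and 16.8 TPM. E2f6 was at 55.0, 46.2 and 45.3 TPM and Tfdp2 at 26.5, 17.5 and 17.7 TPM. Mouse GB344 was the highest for each of these but E2f7, for which it was the lowest.

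Set on a scale from 0% at the mean of the 6 controls to 100% at the tumor of the same mouse, the 6 genes called against controls had a median position of 35.5% in mouse GB344 (26.8% to 61.7%), 20.9% in GB359 (8.73% to 29.7%) and 2.29% in GB370 (0.516% to 15.7%). E2f7 stood out in GB370 at 15.7%, beside E2f3 at 12.3%, with the other 4 genes between 0.516% and 3.34%. The 8 granule cell progenitor markers had medians of 49.7%, 23.9% and 1.90% on the same scale. Their summed level was 857, 724 and 118 TPM in adjacent cerebellum of GB344, GB359 and GB370, against at most 89.8 TPM in controls, and among them Mki67, a marker of dividing cells named after its values were seen, was at 58.4, 33.3 and 2.72 TPM. The part that these markers' cells have in the levels of the E2F and DP genes was not tested.

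**Figure D4:**
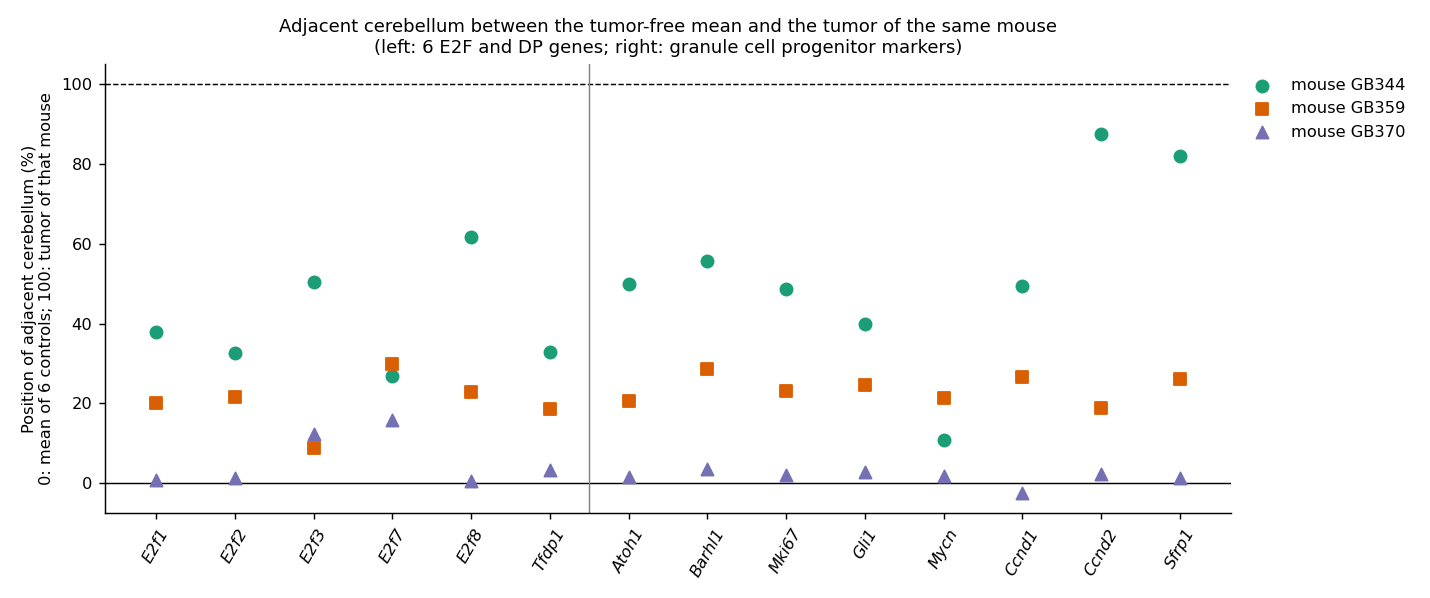
Position of adjacent cerebellum on a linear TPM scale in percent, from the mean of the 6 controls (0) to the tumor of the same mouse (100), for the 6 E2F and DP genes called against controls and 8 granule cell progenitor markers, 1 symbol per mouse. Medians of the 6 genes are 35.5%, 20.9% and 2.29% in mice GB344, GB359 and GB370, and those of the markers are 49.7%, 23.9% and 1.90%.

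Against the 6 tumor-free cerebella, none of the 10 genes was called in adjacent cerebellum by limma, where 0.236% of the 16091 genes tested were called (38 genes). Of the 10 genes, 5 had an adjusted p under 0.05 (E2f1, E2f2, E2f7, E2f8 and Tfdp1), beside 15.7% of all genes. Values of adjacent cerebellum lay wholly above the controls for 4 genes, E2f1, E2f3, E2f4 and E2f7, against 11.7% of all genes. E2f7 had the lowest adjusted p of the family (0.013), with a log2 fold change of 0.81 (SE 0.14) and 9.84 to 12.95 TPM against 5.18 to 8.19 TPM. E2f1 had a log2 fold change of 1.82 (SE 0.45, adjusted p = 0.0291). Without the adjacent cerebellum of mouse GB370, 3 genes were called, E2f1 at 2.60, E2f2 at 2.17 and E2f8 at 2.80, and 586 of all genes. The comparisons of tumor and of adjacent cerebellum with controls share the same 6 control libraries.

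Between the control genotypes no E2F or DP gene differed detectably. Of the 8 genes that reached the expression minimum, none was called by limma and none had an unadjusted p under 0.05, where 9 of 15575 genes (0.0578%) were called. Log2 fold changes of Brca2-mut;Trp53-WT over Brca2-WT;Trp53-mut cerebellum ran from -0.19 (Tfdp2, 95% interval -0.45 to 0.08) to 0.08 (E2f5, 95% interval -0.15 to 0.31). The interval for E2f1 was -0.50 to 0.26 around -0.12, and that for E2f7 was -0.37 to 0.39 around 0.01, so that differences of about those sizes could not be told apart from 0. E2f2 and E2f8 were not tested, and their ranges overlapped. Summed choroid plexus markers (7 genes) were at 29.5 to 892 TPM in Brca2-mut;Trp53-WT and 3988 to 5215 TPM in Brca2-WT;Trp53-mut cerebellum, with none of the 7 at 0 TPM in any control, and the part of this tissue in the control values was not tested.

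The genes that work with E2F proteins were read from lists. Of the pocket proteins, which bind and restrain E2Fs, Rbl1 (p107) rose by 2.17 on the log2 scale (adjusted p = 1.82e-06 by limma). Rb1, the retinoblastoma gene, had a log2 fold change of 0.21 (adjusted p = 0.351). Rbl2 (p130) had -0.65 (adjusted p = 0.00784) with tumors overlapping controls, below the fold minimum. Thus 1 of the 3 pocket protein genes was called.

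In the MuvB, B-Myb and FoxM1 group, which takes over from E2F in driving mitotic genes, 4 of 7 genes rose. They were Foxm1 (log2 fold change 5.18), Mybl2 (4.43), which encodes B-Myb, and the MuvB subunits Rbbp4 (1.51) and Lin9 (1.16). Of the regulators of E2F protein level, 8 of 9 rose. These included Ccna2 (5.51), cyclin A2, Cdc20 (4.37), an activator of the anaphase-promoting complex, Ccnf (2.32), the cyclin F of a ubiquitin ligase that targets E2F proteins, and Trim28 (1.36). Of the E2F6 partners in the Polycomb complex PRC1.6, 3 of 10 rose, Cbx3 (1.90), Rnf2 (1.33) and Wdr5 (1.24), and the list's median was -0.01 while E2f6 itself was at -0.64.

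Most target genes rose. Of 30 G1/S target genes, 28 were called higher and 0 lower in tumors, with a median log2 fold change of 3.10 beside -0.11 for all genes. Examples were Uhrf1 (5.45) and Rrm2 (5.18), the ribonucleotide reductase subunit, at the top and Slbp (1.14) and Ccne2 (1.01) at the lower end. All 18 G2/M target genes with a CHR element were called higher, with a median of 4.55, from Nusap1 (3.78) and Plk1 (3.92) to Aurkb (5.61) and Top2a (6.71). In adjacent against control cerebellum the medians were 1.11 for 29 G1/S genes tested and 2.19 for the 18 G2/M genes, with 0 called in either. The summed G2/M level there was 661, 391 and 75.4 TPM in mice GB344, GB359 and GB370, against 29.8 to 111 TPM in controls, in the same order as E2f1, E2f2 and E2f8.

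The multiciliated cell program, in which E2F4 and E2F5 act with the regulators Multicilin and GEMC1, did not move with the family. Of its 9 genes 6 were tested, Myb was called higher (2.96) and Foxj1 lower (-1.56), and the median was 0.12. Of the remaining marker lists, microglia had 2 of 6 genes higher (Aif1 2.15, C1qa 1.72), endothelial cells and pericytes 1 of 7 lower (Flt1 -1.56), and choroid plexus 0 of 7 called. The choroid plexus result depended on the control genotype, with 5 of 7 called lower against Brca2-WT;Trp53-mut cerebellum (median -3.41) and 0 of 5 tested against Brca2-mut;Trp53-WT cerebellum (median -0.33). The progenitor markers with the highest values were Atoh1 (7.61) and Mycn (6.50), an SHH target and activator of cell cycle genes, and the lowest of the called were Gli1 (3.35) and Ccnd1 (3.18). The largest falls among granule neuron markers were Gabra6 (-5.01) and Cbln3 (-4.64), and the smallest called were Etv1 (-3.38) and Cbln1 (-2.62). Purkinje cell markers fell from -4.85 (Slc1a6) and -4.89 (Itpr1) to -5.38 (Pcp2) and -5.54 (Car8). Glial markers fell too, from Slc1a2 (-1.57) and Aldh1l1 (-2.09) to S100b (-2.88) and Gdf10 (-3.82) in astrocytes and Bergmann glia. Oligodendrocyte markers fell from Cnp (-3.46) and Mog (-3.94) to Mobp (-5.54).

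Differences between tumors were read beside the chromosome of each gene, because tumors of mice lacking p53 can gain or lose chromosomes. For each tumor the log2 difference from the mean of the 6 controls was taken per gene, and its median per chromosome. Chromosome 8, which carries E2f4 and Tfdp1, had a median of 0.30 in the tumor of GB359, the highest of the 19 autosomes there, and -0.12 and -0.01 in the tumors of GB344 and GB370. E2f4 and Tfdp1 were both highest in the tumor of GB359. The difference of E2f4 was 0.44, 0.73 and 0.45 in the tumors of GB344, GB359 and GB370, and after subtracting the median of chromosome 8 it was 0.55, 0.43 and 0.46, so that its SD over tumors went from 0.17 to 0.06. For Tfdp1 the differences were 2.04, 2.23 and 2.02 before and 2.16, 1.93 and 2.03 after, with an SD of 0.11 both times. The part of DNA copy number was not tested.

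For E2f3 and E2f6 the chromosome medians were below those of most autosomes. Chromosome 13, with E2f3, had medians of -0.47, -0.26 and -0.37 in the tumors of GB344, GB359 and GB370, at place 18, 19 and 19 of the 19 autosomes from high to low. E2f3 nevertheless differed by 1.46, 1.30 and 1.43. Chromosome 12, with E2f6, had medians of -0.44, -0.25 and -0.17, and E2f6 differed by -0.74, -0.56 and -0.61, which left -0.31, -0.31 and -0.44 relative to its chromosome. Subtracting the chromosome median lowered the SD over tumors for 5 of the 10 genes and raised it for the other 5, among them E2f3 from 0.087 to 0.19 and E2f1 from 0.34 to 0.41. Medians of all genes were -0.17, -0.04 and -0.12 in the same tumors.

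**Figure D5:**
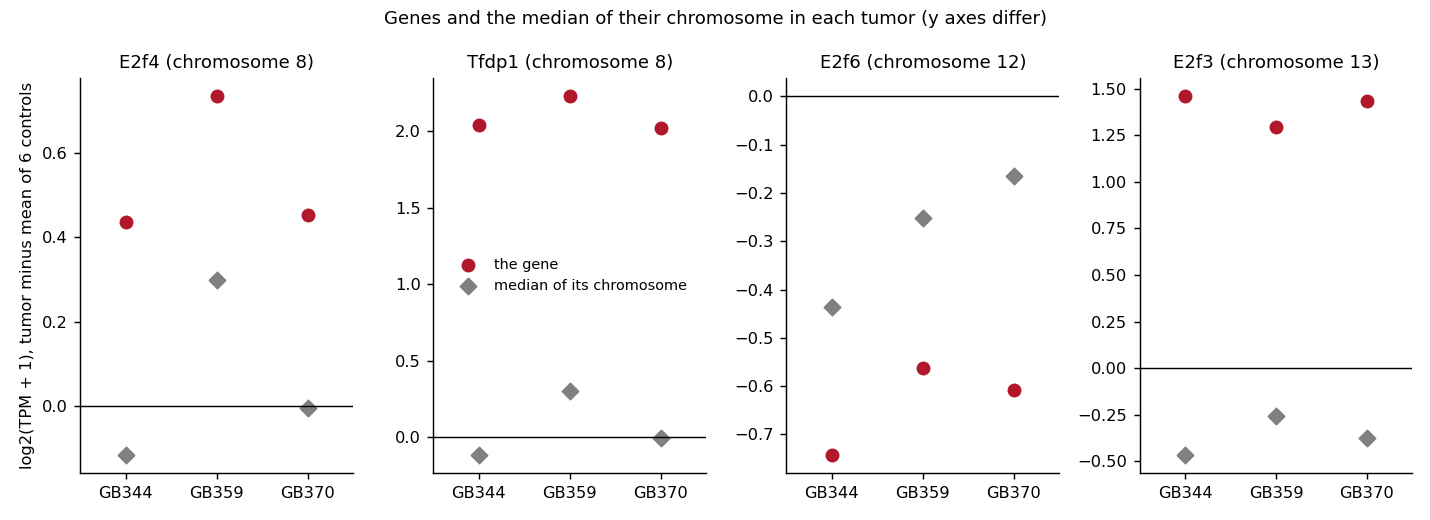
Log2(TPM + 1) difference of each tumor (mice GB344, GB359, GB370) from the mean of the 6 controls, for the gene (red circles) and the median of all tested genes on its chromosome (grey diamonds), for E2f4, Tfdp1, E2f6 and E2f3. E2f4 and the median of chromosome 8 are both highest in GB359, at 0.73 and 0.30, while E2f3 lies above 1.29 in all 3 tumors with medians of chromosome 13 below -0.25.

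Genes whose levels were most like those of each member over the 12 libraries were named by Pearson's r of log2(TPM + 1) among 16497 genes. The points share 4 groups and 3 mice, so r mostly reflects the difference between groups and carries no test. For E2f1 they were Smc2, Olfr1393 and Nasp (r = 0.998, 0.997 and 0.997). For E2f2 they were Exo1, Ttk and Gtse1 (0.999, 0.997 and 0.997), and for E2f8 Ndc80, Espl1 and Esco2 (0.998 each). For Tfdp1 they were Topbp1, Pola1 and Ddx39 (0.996 each). E2f3 was most like Rpusd2, Rnf219 and Tbx1 (0.985, 0.984 and 0.983), and E2f7 most like Rpap3, Ror2 and Smpd2 (0.982, 0.978 and 0.978).

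The members that changed less had other neighbours. E2f5 was most like Il2rg, Etaa1 and Nup50 (r = 0.980, 0.975 and 0.973), E2f6 like Ypel2, Ccdc47 and Polk (0.978, 0.977 and 0.976) and Tfdp2 like Cd84, Fyb and Katnbl1 (0.944, 0.942 and 0.942). E2f4 was most like Ddx19a, Zcchc14 and Csnk2a2 (0.984, 0.983 and 0.980), all of which lie on chromosome 8 as E2f4 does. Of the 50 genes most like E2f4, 17 lay on chromosome 8 (34%), which holds 5.26% of all genes compared. For the other 9 members the share on the member's own chromosome was 0% to 10%. Ranked by Spearman's rho in place of r, none of the 3 named genes was kept for any member.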

How the data were processed

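RNA was measured by poly(A) RNA sequencing in 12 mouse libraries, 3 in each of 4 groups taken from the labels. Salmon 0.8.1 was run by the authors on transcript models of TxDb.Mmusculus.UCSC.mm10.knownGene 3.4.0, tximport 1.20 summed its output per gene, and the authors deposited the resulting TPM for 24091 genes, with 0 columns left unused. Read counts were not used here, so no counting error or detection limit is given and precision is that of the spread between mice. The 10 genes and the gene lists were chosen with earlier results of these data known.

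Values entered the tests as log2(TPM + 1). A gene was tested where 3 or more libraries of the comparison held 1 TPM or more, and the 2 groups were compared with limma 3.58.1 (lmFit, eBayes with trend, R 4.3.3) using only the groups compared. P-values were adjusted over all tested genes by Benjamini-Hochberg, and calls needed an adjusted p below 0.01 together with a log2 change of 1 or more in size. On simulated data with 200 changed genes, 160 were recovered for tumor against adjacent cerebellum (15845 genes) and 197 for tumor against both control genotypes (16241 genes), with 0 false calls. The planted changes were 2 log2 units in size, in genes with a mean log2(TPM + 1) above 3 in the second group. All simulated samples took the spread of that group. Recovery of smaller changes, or of genes at lower levels such as E2f2 and E2f8, was not tried. Labels give tumor and adjacent cerebellum the same mouse, and deviations from the group means correlated at 0.25, 0.18 and 0.15 within mice GB344, GB359 and GB370 and at -0.16 to 0.02 between mice.

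All 10 genes and the 3 pocket proteins were named, with the 2 highest and 2 lowest called changes of each other list in tumor against both control genotypes and the 3 genes most like each member. Mki67 was named after its values were seen, and 1 gene that the rule names is not reported here. Gene positions and promoters were RefSeq GRCm38.p6 (mm10), matched by Entrez identifier for 24045 genes, and upstream bases inside the RefSeq gene were left out of the 3 long stretches printed. Protein sequences were not used here, so the planned protein motifs were not read. Other steps used Python 3.11.15, numpy 2.4.6, pandas 2.3.3 and matplotlib 3.10.9.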

Additional observations from a re-analysis of the deposited data

Results flagged for a closer look

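Among the 6 tumor-free cerebella, 3 values of the family lay farther from the others than Dixon's critical value for 6 samples (the gap to the nearest value over the range), and chance alone flags about 1 in 20 groups. E2f2 was at 1.41 TPM in Brca2-mut;Trp53-WT mouse GB512, with the nearest control at 0.476 TPM and a gap of 0.746 of the range. E2f8 was at 1.52 TPM in the same library, with the nearest control at 0.314 TPM and a gap of 0.896. The summed CHR-bearing G2/M genes were at 111 TPM in that library and 29.8 to 39.9 TPM in the other 5 controls, and Mki67 was at 5.63 TPM there and at most 0.343 TPM in the others. E2f4 was at 40.3 TPM in Brca2-mut;Trp53-WT mouse GB508, with the nearest control at 46.3 TPM and a gap of 0.698.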

How the results depend on the processing

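TPM hold no depth, so only the spread between 3 mice per group limits these results, and E2f2 and E2f8 lie near or under 1 TPM in controls, where the pseudocount sets the fold change (E2f8 4.07 with 1 TPM and 6.19 with 0.01). Of 956 alternative values of the members' log2 fold changes, 890 kept direction and side of the thresholds. With tumor against both controls or either control, the 6 called genes stayed called in all alternatives, leave-one-out included.

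With an adjusted p under 0.05 and no fold minimum, members called were 10 against both controls and against each control genotype, 8 for tumor against adjacent and 5 for adjacent against controls, and all genes called were 11573, 10478 (Brca2-WT;Trp53-mut), 10001 (Brca2-mut;Trp53-WT), 7980, 2524 and, between control genotypes, 71. For tumor against adjacent, members called were 5 with median-of-ratios scaling, quantile normalization or all 4 groups in 1 fit, 2 with the mouse as a replicate block, which changed no other call, 4 without the adjacent cerebella of mice GB344 and GB359 (added after seeing the data, as was every use of that setting), and 0 to 4 when a library was left out. All genes called there were 2377 to 3482 when a library was left out and 1098 without both adjacent cerebella.

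For adjacent against controls, members called ran from 0 to 3 without a library, and all genes called were 4 with no filter, 58 with median-of-ratios, 59 with quantile, 10 with no trend, 0 to 586 without a library (0 without GB520, 1 without GB519, 2 without GB361 or adjacent GB344, 586 without adjacent GB370) and 15 without both adjacent cerebella. Between control genotypes they were 2 with a pseudocount of 0.01, 3 with no filter, a 5 TPM minimum, quantile or no trend, 4 with median-of-ratios, 21 with all 4 groups, and 4 to 29 without a library.

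Signs turned for values near 0. E2f5 in adjacent against controls went to -0.031 (median-of-ratios), -0.086 (quantile), -0.11 to 0.15 without a library (lowest without adjacent GB344) and -0.19 without both. Between control genotypes E2f1 went to 0.0043 (quantile) and ran from -0.22 to 0.0025 without a library (highest without GB508). E2f3 went to 0.057 (median-of-ratios) and 0.073 (quantile) and ran from -0.099 to 0.038 (highest without GB512), and E2f6 went to 0.051 and 0.047 and ran from -0.14 to 0.051 (highest without GB508). Without a library E2f7 ran from -0.16 to 0.12 (lowest without GB361) and Tfdp1 from -0.21 to 0.055 (highest without GB508). The cause of these changes was not tested.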
